A study of Mus musculus with 10 samples.

Results

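Semaphorins, ephrins, Slits and netrins are guidance cues: secreted or membrane-bound proteins that attract or repel moving cells and growing axons, vessels and nerves. Class 3 semaphorins are secreted and act through neuropilins and plexins, Slits are secreted and act through Robo receptors, netrins act through Dcc and the Unc5 receptors, and ephrins sit on the cell surface and signal to Eph receptor tyrosine kinases on neighbouring cells. In the heart these families are known for roles in the outflow tract, the valves, the coronary vessels and the sympathetic nerves. These families were chosen with earlier results of these data known, and their genes were taken by symbol. Every probe was used whose RefSeq accession maps to a Sema, Plxn, Epha, Ephb, Efna, Efnb, Slit, Robo, Ntn or Unc5 gene, or to Nrp1, Nrp2 or Dcc. This gave 68 guidance genes of 22911 named genes on the array, represented by 114 probes of 56605. Sema4b, to which none of these probes maps, was not analysed here.

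Their mRNA was measured in the right ventricle (RV, 4 arrays), the left ventricle (LV, 3 arrays) and the ventricular septum (Septum, 3 arrays) of hearts of C57BL/6N mice, an inbred laboratory strain, as total RNA on Agilent one-colour arrays. The labels give no surgery, treatment, genotype, age or sex for these samples, and all 10 share the strain. The series' design text says that different individuals served for each experiment. It does not say which arrays share an animal, so p-values measure the spread between these samples. Arrays 1 and 2 of each region were on 1 slide and the others on the second.

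Levels are given as a scaled log2 signal, the log2 of the processed spot signal, with each array's 75th percentile set to 0, so that 1 unit is a doubling. A probe's level says nothing of how it compares with another gene's probe, and only differences between arrays of the same probe are read. Whole ventricular tissue was used, and in such samples fewer cells of a type and less RNA per cell cannot be told apart. A gene was tested where all arrays of 1 or more regions had its brightest probe well above background, which held for 55 of the 68 genes. Another 13 were not tested: the Eph receptors Epha3, Epha5, Epha6 and Epha8, the ephrin Efna4, Robo2, Robo3, the semaphorins Sema3e, Sema4f and Sema4g, the plexin Plxna3, the netrin Ntn5 and the netrin receptor Unc5d. For 8 of these 13 no array had the brightest probe well above background. A gene is called here where limma's Benjamini-Hochberg adjusted p, over all 30234 probes tested, was below 0.05.

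Secreted ligands with a higher level in the RV made up 6 of the 10 guidance genes called in RV against LV. The same 6 stood among 20 calls when limma was given the replicate number as a block, and among 22 when it was given the slide, where the added genes were mostly receptors and membrane-bound ligands of both directions and 17.9% and 21.3% of all genes were called. In the fit without a block, which is described first, 9 of the 55 tested guidance genes were higher in the RV than in the LV (Sema3a, Sema3d, Sema3c, Slit2, Slit3, Ntn4, Plxnc1, Epha1 and Ephb6) and 1 was lower (Ntn1). These 10 calls are 18.2% of the genes tested. Sema3a and Ntn4 were tested only because their RV arrays were above background. A separate fit of only the probes above background on all 10 arrays left 50 guidance genes, without these and Epha1. It called 8 against the LV, 6 of them higher and Plxnb1 newly as lower, and 4 against the septum, all higher. Of all 27225 probes in that fit, 1112 and 556 were called. In the fit without a block of all 14645 named genes tested, 4.98% were called against the LV, 3.14% as higher in the RV and 1.84% as lower. Against the septum, 5 of 55 (9.09%) were called, all higher in the RV (Sema3a, Sema3d, Slit2, Slit3 and Ephb6), where 2.70% of all genes were called, 1.68% higher and 1.02% lower. All 5 were also among the calls against the LV, and both comparisons share the 4 RV arrays. Between septum and LV limma called 0 of the 55, as it called 0% of all genes. There 3 of the 55 had an unadjusted p below 0.05, and Tukey's test after an analysis of variance called 0 with adjustment over probes and 1 without.

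By role, 7 of 12 tested secreted ligands were called in RV against LV (6 higher, 1 lower), 0 of 17 membrane-bound ligands and 3 of 26 receptors, all higher. Sema3a and Ntn4, both among the 6 higher, were tested only through their RV arrays. All counts and medians given here for secreted ligands include them, which favours a higher level in the RV. With the slide as a block the counts were 8 of 12 (6 higher, 2 lower), 4 of 17 (3 higher, 1 lower) and 10 of 26 (6 higher, 4 lower), and blocking by replicate number gave 8, 3 (2 higher, 1 lower) and 9 (5 higher, 4 lower). Against the septum they were 4 of 12, 0 of 17 and 1 of 26 without a block, 6, 2 and 8 with the slide and 6, 2 and 6 with the replicate number. The median difference over the 55 genes was 0.048 against the LV and 0.03 against the septum, beside −0.052 and −0.038 over all genes. In the 12 secreted ligands the median was 0.38 against the LV and 0.30 against the septum. In 18 of the 55 genes the RV and LV arrays did not overlap (13 higher and 5 lower in the RV), or 32.7% beside 22.5% of all genes. For RV and septum this was 13 genes (10 higher and 3 lower), or 23.6% beside 16.0%. A moderated F test over the 3 regions called 7 of 55 (Epha1, Ephb6, Sema3a, Sema3c, Sema3d, Slit2 and Slit3), beside 3.67% of all genes.

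**Figure D1:**
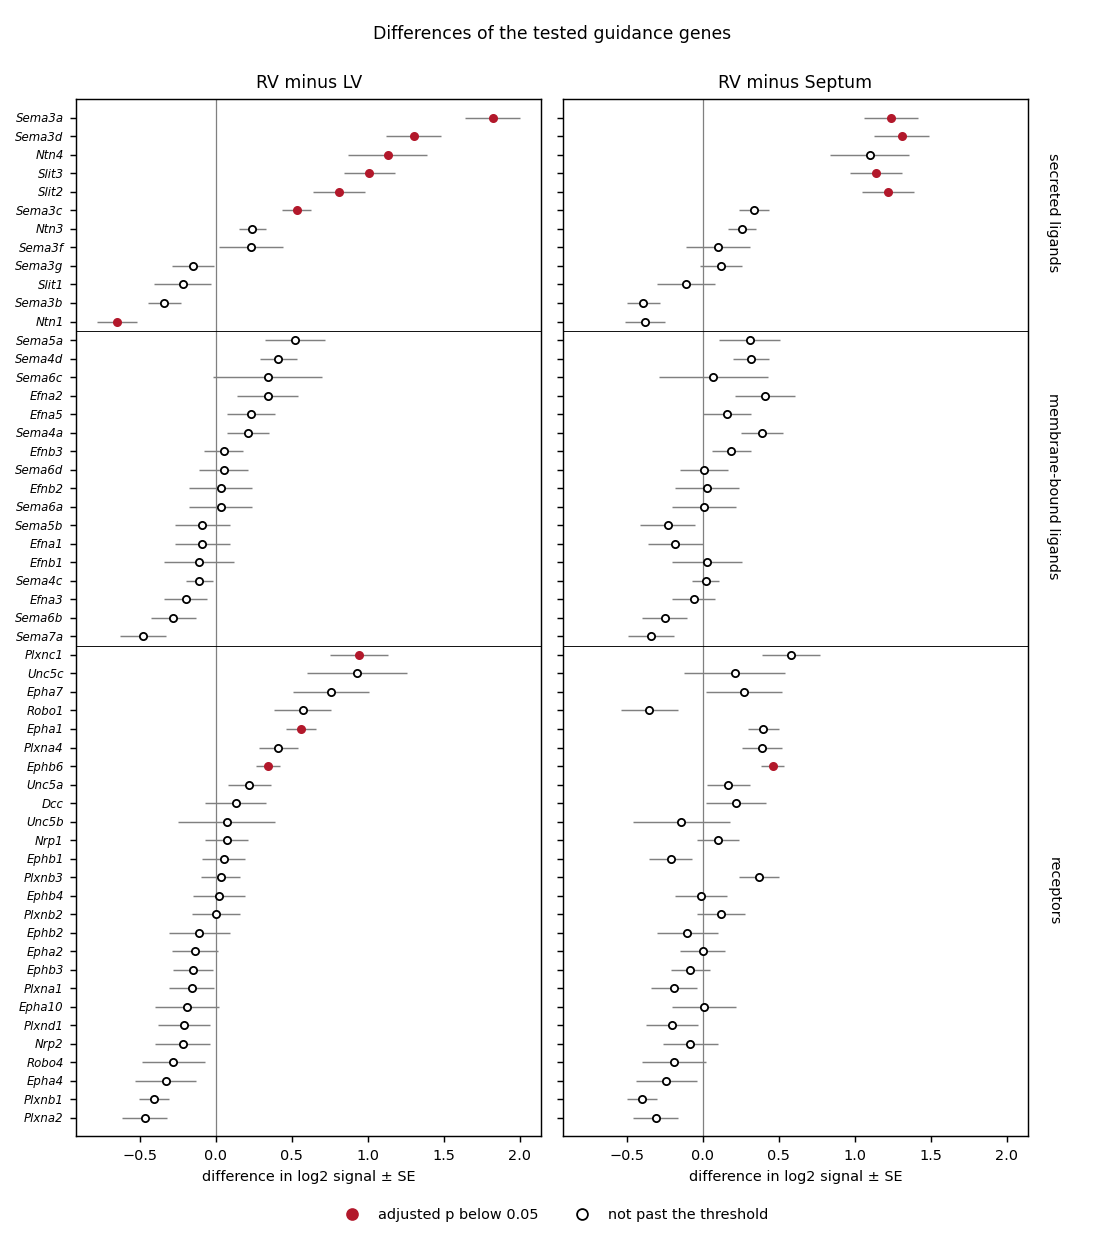
Difference in log2 signal of the 55 tested guidance genes, RV minus LV on the left and RV minus Septum on the right, each point a gene with its standard error, filled where the adjusted p was below 0.05 in the fit without a block. The filled points lie mainly among the 12 secreted ligands at the top, and the 17 membrane-bound ligands between −0.48 and 0.52 against the LV hold none.

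The largest differences of the 55 belonged to class 3 semaphorins. Sema3a encodes a secreted repellent that binds neuropilin 1 and is known for patterning cardiac sympathetic nerves. Its levels were −2.72, −2.96, −3.25 and −2.60 on RV arrays 1 to 4, −4.35, −4.89 and −4.86 on the LV arrays, and −4.00, −4.32 and −4.07 on the septum arrays. The 4 RV arrays were above all others. The difference was 1.82 ± 0.18 (SE, 3.52-fold) against the LV, with a limma adjusted p of 0.00268, and 1.24 ± 0.18 against the septum, adjusted p = 0.0129. The probe was well above background on none of the LV arrays and on only 1 of 3 septum arrays, so the difference from the septum is taken against signals mostly at background. Against the LV the fold is therefore at least 1.80, taking for each LV array the lowest signal that was well above background where that exceeded the probe's own. With normexp background correction, which adds an offset before the log, the differences were 0.64 and 0.53, both still called. A second Sema3a probe was not well above background on any array.

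Sema3d, a secreted semaphorin known from endothelial and venous patterning, was at −0.04, −0.18, −0.27 and −0.28 in the RV, at −1.30, −1.37 and −1.82 in the LV and at −1.08, −1.78 and −1.65 in the septum. No RV array came near those of the other regions, which overlapped each other. The RV was higher by 1.30 ± 0.18 than the LV (2.46-fold, adjusted p = 0.00664) and by 1.31 ± 0.18 than the septum (2.47-fold, adjusted p = 0.00988). Without septum array 2 the adjusted p of this gene, of Sema3a and of both Slits against the septum no longer passed, and no guidance gene was called.

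Sema3c, which takes part in outflow tract septation, was at 0.96, 0.94, 0.93 and 1.01 in the RV, at 0.58, 0.43 and 0.28 in the LV and at 0.80, 0.48 and 0.59 in the septum. The RV arrays were nearly equal and above all 6 others. The difference from the LV was 0.53 ± 0.098 (1.44-fold, adjusted p = 0.0216), lost without any 1 of RV arrays 1, 2 and 4 or LV arrays 2 and 3. The difference from the septum was 0.34 ± 0.098 and not called (adjusted p = 0.143). Sema3b, which binds neuropilins too, had values in the other direction: 2.28, 2.26, 2.59 and 2.56 in the RV, below 2.76, 2.75 and 2.78 in the LV and 2.66, 2.84 and 2.93 in the septum. Its arrays did not overlap between the RV and either region, but neither difference was called (−0.34 ± 0.11, adjusted p = 0.118, and −0.39 ± 0.11, adjusted p = 0.127). Sema3f (0.23 and 0.10 against LV and septum) and Sema3g (−0.15 and 0.12) were not called.

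Slit2 and Slit3 encode large secreted proteins that bind Robo receptors. Slit2 was at −0.64, −0.90, −1.46 and −0.81 in the RV, at −1.72, −1.92 and −1.64 in the LV and at −2.21, −2.15 and −2.16 in the septum. The regions did not overlap, with the septum lowest and tightly grouped. The RV exceeded the septum by 1.22 ± 0.17 (2.34-fold, adjusted p = 0.0111) and the LV by 0.81 ± 0.17 (1.75-fold, adjusted p = 0.0362). The call against the LV held in only 1 of 10 fits that left out an array, the one without RV array 3, the lowest of the RV.

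Slit3 was at −1.14, −1.02, −0.78 and −0.52 in the RV, at −2.0, −1.86 and −1.77 in the LV and at −1.81, −2.30 and −1.90 in the septum. All RV arrays lay above the others, and LV and septum overlapped. The differences were 1.01 ± 0.17 from the LV (2.02-fold, adjusted p = 0.0132, lost without LV array 1 or 2) and 1.14 ± 0.17 from the septum (2.20-fold, adjusted p = 0.0128). The third member, Slit1, differed by −0.22 and −0.11 and was not called.

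Of the netrins, Ntn1 was lower in the RV than in the LV and Ntn4 higher. Ntn1 encodes the classical netrin, a secreted laminin-related cue. It was at 0.48, 0.67, 0.85 and 0.83 in the RV, at 1.15, 1.57 and 1.35 in the LV and at 0.91, 1.16 and 1.21 in the septum. Every RV array was below every other array. The RV was lower than the LV by 0.65 on the log2 scale (−0.65 ± 0.13, adjusted p = 0.0294, lost without RV array 1, 2 or 4 or LV array 2 or 3). The difference from the septum, −0.38 ± 0.13, was not called (adjusted p = 0.218) but passed with the replicate number as a block (adjusted p = 0.0358).

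Ntn4, a netrin of basement membranes, was dim, at −3.54, −2.94, −3.09 and −3.63 in the RV, −4.04, −5.10 and −4.17 in the LV and −4.36, −4.28 and −4.57 in the septum. The RV arrays were the highest, but 1 of 3 LV arrays and none of the septum arrays was well above background. Against the septum the RV was at least 1.56-fold higher (measured means −3.30 and −4.40, adjusted p = 0.0735). Against the LV the difference was 1.13 ± 0.26 (adjusted p = 0.047). Leaving out any of the 10 arrays ended that call, and normexp gave 0.24 (adjusted p = 0.342). Since Sema3a and Ntn4 passed the filter on dim probes through their RV arrays, their place among the tested genes depends on their RV level, and the same holds for Efna2 and Unc5c.

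**Figure D2:**
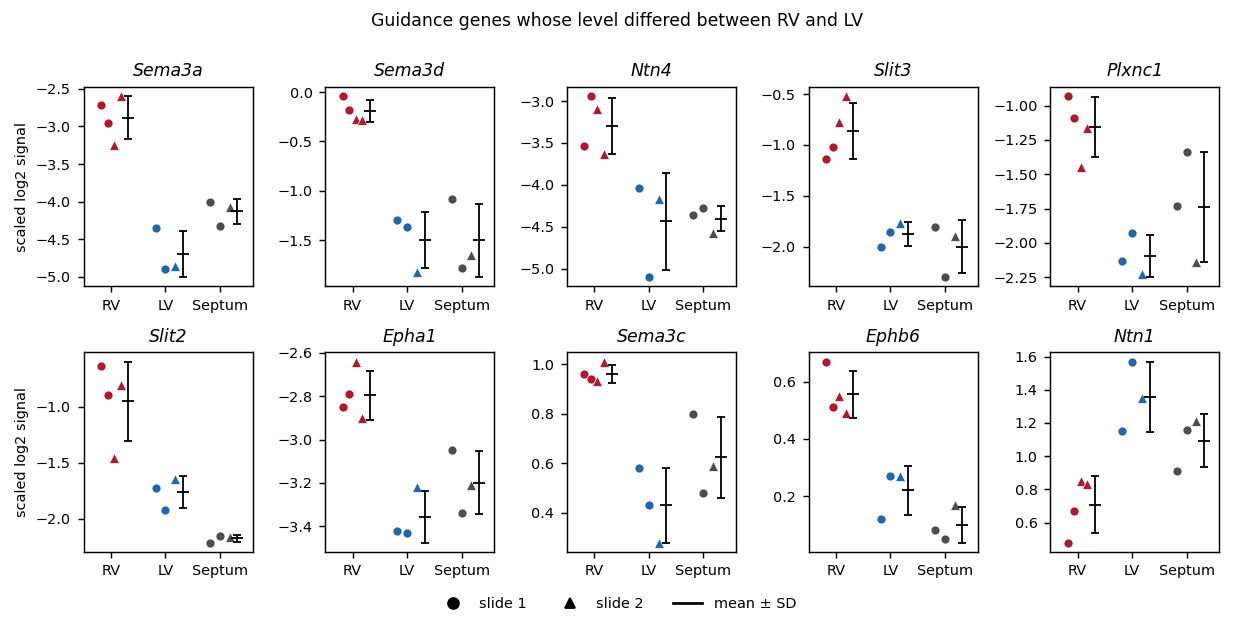
Scaled log2 signal of the 10 guidance genes called in RV against LV, 1 panel per gene with its own axis, each point an array (circles slide 1, triangles slide 2) beside the mean and SD of 4 RV, 3 LV and 3 septum arrays. In each panel all RV points lie on 1 side of all LV points, above in 9 genes and below in Ntn1, and in Plxnc1 septum array 2 lies among the RV points.

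Of the 26 tested receptors, Ephb6, Plxnc1 and Epha1 were called. Ephb6 encodes an Eph receptor that lacks kinase activity. It was at 0.67, 0.51, 0.55 and 0.49 in the RV, at 0.12, 0.27 and 0.27 in the LV and at 0.08, 0.05 and 0.17 in the septum, with the RV above both. The differences were small, 0.34 ± 0.078 from the LV (1.26-fold, adjusted p = 0.0474) and 0.46 ± 0.078 from the septum (1.37-fold, adjusted p = 0.0232). The first was lost without any 1 of the 10 arrays, the second in 6 of 10 such fits.

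Plxnc1 encodes plexin C1, the receptor of Sema7a. It was at −0.93, −1.09, −1.45 and −1.16 in the RV, at −2.13, −1.93 and −2.23 in the LV and at −1.73, −1.34 and −2.14 in the septum. RV and LV did not overlap, and 1 septum array lay within the RV range. The RV was higher than the LV by 0.94 ± 0.19 (1.92-fold, adjusted p = 0.0268, held in 4 of 10 fits without an array). Epha1, an Eph receptor for ephrin-A ligands, was at −2.85, −2.79, −2.64 and −2.90 in the RV against −3.42, −3.43 and −3.22 in the LV and −3.05, −3.34 and −3.21 in the septum. It was above background on 2 of 3 LV arrays, and all RV arrays were the highest. Its difference from the LV was 0.56 ± 0.10 (adjusted p = 0.0189), lost without LV array 1 or 2 and at 0.23 with normexp (adjusted p = 0.142).

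Sequence upstream of the start is shown for the 5 genes called in RV against both LV and septum, since their differences had the same direction in both comparisons. A promoter entry was found for 58 of the 68 genes. The 250 bases before the RefSeq start (mouse build GRCm38.p6, all on the plus strand) lie at chr5:47982905-47983154 for Slit2, chr11:35121206-35121455 for Slit3, chr5:13396534-13396783 for Sema3a, chr5:12382916-12383165 for Sema3d and chr6:41605261-41605510 for Ephb6. Capitals mark matches on either strand to the GC box GGGCGG, the TATA box TATAAA, the TEAD letters GGAATG or the GATA letters AGATAA.
Slit2: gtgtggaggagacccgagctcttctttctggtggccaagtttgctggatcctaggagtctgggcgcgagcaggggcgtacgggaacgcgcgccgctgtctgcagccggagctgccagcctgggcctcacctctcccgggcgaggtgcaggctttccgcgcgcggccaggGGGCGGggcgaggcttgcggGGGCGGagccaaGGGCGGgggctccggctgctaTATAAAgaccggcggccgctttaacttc
Slit3: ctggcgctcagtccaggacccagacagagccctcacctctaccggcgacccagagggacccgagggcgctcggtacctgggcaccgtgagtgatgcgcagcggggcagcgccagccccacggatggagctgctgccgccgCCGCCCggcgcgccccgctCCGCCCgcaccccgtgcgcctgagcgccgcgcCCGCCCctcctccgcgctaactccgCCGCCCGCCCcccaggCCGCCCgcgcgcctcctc
Sema3a: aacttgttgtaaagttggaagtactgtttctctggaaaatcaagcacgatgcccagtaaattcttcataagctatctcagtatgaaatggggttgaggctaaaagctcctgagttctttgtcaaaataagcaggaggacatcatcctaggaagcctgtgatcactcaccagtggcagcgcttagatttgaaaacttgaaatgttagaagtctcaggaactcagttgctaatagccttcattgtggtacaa
Sema3d: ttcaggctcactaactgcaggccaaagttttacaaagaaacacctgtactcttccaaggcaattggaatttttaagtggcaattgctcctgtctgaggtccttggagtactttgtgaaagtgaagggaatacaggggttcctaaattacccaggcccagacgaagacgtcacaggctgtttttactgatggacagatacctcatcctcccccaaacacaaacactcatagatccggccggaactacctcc
Ephb6: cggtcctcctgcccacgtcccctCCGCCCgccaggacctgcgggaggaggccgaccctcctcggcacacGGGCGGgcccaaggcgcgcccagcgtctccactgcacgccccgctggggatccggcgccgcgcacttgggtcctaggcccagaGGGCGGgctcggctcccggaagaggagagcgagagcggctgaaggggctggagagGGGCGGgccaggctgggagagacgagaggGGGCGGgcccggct
Slit2, Slit3 and Ephb6 hold 3, 6 and 5 GC boxes, with G and C making up 69.6%, 78.8% and 76.8% of the bases. 2 of the 6 in Slit3 overlap. Sema3a and Sema3d hold none of the 4 motifs and are 40.8% and 46.8% G and C. The median over 27025 promoters was 52.0%, and 32.9% of them held a GC box. A single TATA box stood in Slit2, 28 bases before its start (13% of all promoters held 1), and TEAD and GATA letters, which 12.6% and 10.3% of all promoters held, were in none of the 5. These matches describe the windows and no binding was measured.

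None of the tested neuropilins, Robo receptors or netrin receptors was called without a block. Of the Slit receptors, Robo1 was at −1.98, −1.88, −1.19 and −1.78 in the RV, −2.27, −2.11 and −2.45 in the LV and −1.19, −1.64 and −1.25 in the septum. Septum and RV overlapped and the LV lay below both. The septum exceeded the LV by 0.92 ± 0.21, the largest of the 55 differences in that comparison, with an adjusted p of 0.508. Robo4, a Robo receptor of endothelium, differed by −0.28 from the LV and −0.19 from the septum and was not called.

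The neuropilins Nrp1 and Nrp2, co-receptors of class 3 semaphorins that were chosen for mention after their values were seen, were not called. Nrp1 was at 4.69, 4.56, 5.02 and 5.0 in the RV, 4.71, 4.59 and 4.94 in the LV and 4.65, 4.59 and 4.91 in the septum. The regions overlapped fully, and the arrays of the second slide were higher in each. Among plexins, Plxna4 (0.41 ± 0.13 from the LV and 0.39 ± 0.13 from the septum), Plxna2 (−0.47 ± 0.15 and −0.31 ± 0.15) and Plxnb1 (−0.41 ± 0.099 and −0.40 ± 0.099) had RV arrays clear of the LV arrays, with adjusted p-values of 0.121, 0.113 and 0.0547 against the LV. A second Plxna2 probe gave −0.25 and −0.18. Plxnd1 differed by −0.21 and −0.20, and Plxnb3 by 0.03 and 0.37 with −0.34 ± 0.14 between septum and LV.

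Among netrin receptors, Unc5c differed by 0.93 ± 0.33 from the LV and was well above background on 1 of 3 LV arrays (adjusted p = 0.151). The brightest probe of Dcc stood between 8.70 and 9.47 on every array, while its other 3 probes were not well above background on any, so the level given under Dcc rests on 1 probe. Epha7 was higher in the RV than in the LV by 0.76 ± 0.25 on its brightest probe and 0.56 ± 0.14 on another (adjusted p = 0.133 and 0.0564).

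Of the membrane-bound ligands none was called without a block. Sema7a, which is anchored by a lipid tail, was at 2.29, 2.26, 2.72 and 2.42 in the RV, below 2.75, 2.77 and 3.17 in the LV (−0.48 ± 0.15, adjusted p = 0.119). Sema4d (0.41 ± 0.12, adjusted p = 0.0911) and Sema5a (0.52 ± 0.20, adjusted p = 0.183) had the reverse sign. Sema4a differed by 0.39 ± 0.14 from the septum. Sema5b had probes that disagreed: the brightest gave −0.09 against the LV, and a dimmer one gave −0.72 (adjusted p = 0.00819) against the LV and −0.60 (adjusted p = 0.0265) against the septum. Counting a gene as called by any of its probes thus added 1 gene to each of these counts. The 7 tested ephrins lay between −0.20 and 0.34 against the LV.

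Levels of several of these genes differed between the slides. Unc5b, also chosen after its values were seen, was at 1.30 and 1.40 on the RV arrays of slide 1 and at 2.43 and 2.13 on those of slide 2, with the same direction in the LV (1.40 and 1.62 against 2.23) and the septum (1.77 and 1.68 against 2.40). Sema6c went the other way, at 0.91 and 0.94 against −0.22 and 0.14 in the RV. With the slide as a block in limma, 22 of 55 were called in RV against LV (15 higher and 7 lower), where 21.3% of all genes were. Against the septum 16 were called (10 higher and 6 lower), where 11.0% of all genes were. All 10 and all 5 calls of the fit without the block were among them. The genes added against the LV were Epha7, Plxna4, Sema4d, Sema5a, Sema6c and Unc5c as higher and Plxna2, Plxnb1, Plxnd1, Robo4, Sema3b and Sema7a as lower in the RV. Against the septum they were Epha1, Ntn4, Plxna4, Plxnc1 and Sema4a as higher and Plxna2, Plxnb1, Plxnd1, Robo4, Sema3b and Sema7a as lower. A second Sema6c probe gave −0.05 with this block, without a call (adjusted p = 0.574), and so did not share the 0.49 of the first. With a block for the replicate number, 20 and 14 were called, beside 17.9% and 8.69% of all genes, again with all 10 and all 5 among them.

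Each slide alone leaves 2 RV arrays against 1 or 2 of another region. The RV arrays of the 7 secreted ligands called against the LV overlapped neither the LV nor the septum arrays. Their direction within a slide was thus fixed beforehand and is no further support, and only the sizes are given. RV minus LV was 1.78 on slide 1 and 1.93 on slide 2 for Sema3a, 1.22 and 1.54 for Sema3d, 0.85 and 1.12 for Slit3, 1.05 and 0.50 for Slit2, and 0.44 and 0.69 for Sema3c. Ntn4 gave 1.33 and 0.80, and Ntn1 −0.78 and −0.51. RV minus Septum was 1.32 and 1.14 for Sema3a, 1.31 and 1.37 for Sema3d, 0.97 and 1.25 for Slit3, and 1.41 and 1.03 for Slit2.

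**Figure D3:**
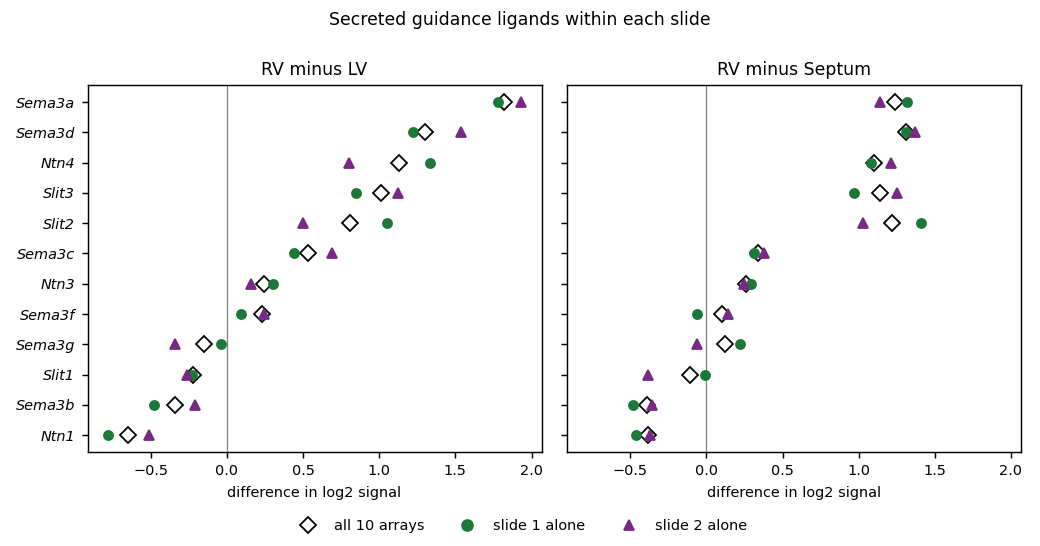
Difference in log2 signal of the 12 tested secreted ligands, RV minus LV on the left and RV minus Septum on the right, from all 10 arrays (diamonds), slide 1 alone (circles) and slide 2 alone (triangles). For Sema3a, Sema3d, Ntn4, Slit3, Slit2 and Sema3c all 3 symbols lie above 0 on both sides and for Sema3b and Ntn1 below 0. The RV arrays of these genes overlap no others, so the side is fixed beforehand. The size can differ, as for Slit2 against the LV, 1.05 on slide 1 and 0.50 on slide 2.

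**Figure D4:**
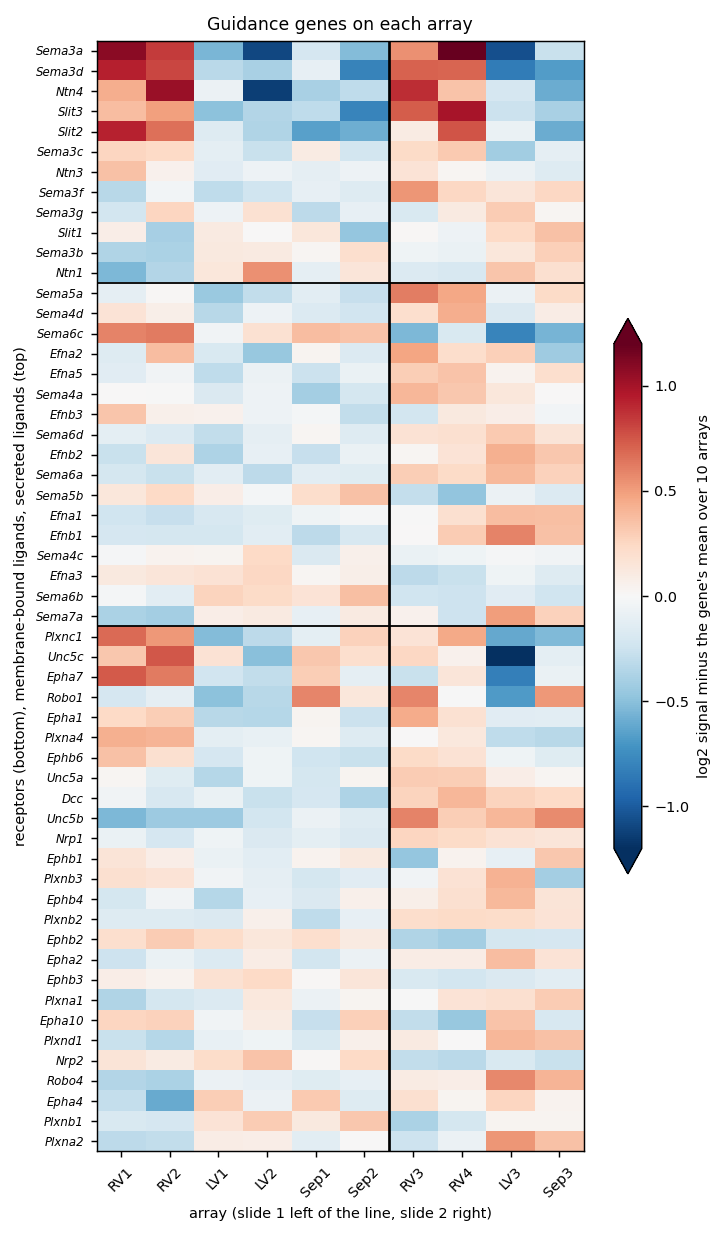
Log2 signal of each of the 55 tested guidance genes on each array minus the gene's mean over 10 arrays, with slide 1 left and slide 2 right of the line and colours ending at the ends of the scale. The top rows (Sema3a, Sema3d, Ntn4, Slit3, Slit2) are red on the RV arrays of both slides, whereas genes such as Unc5b and Sema6c change colour between the slides.

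Other genes of these pathways were counted from a list of 73 co-receptors, alternative ligands and intracellular partners, of which 64 were tested. In RV against LV 4 of the 64 were called, 3 higher and 1 lower, beside 4.98% of all genes. Blocking by slide gave 7 higher and 11 lower, and blocking by replicate number 6 and 9, beside 21.3% and 17.9% of all genes. The larger share thus turned to lower in the RV, as it did over all genes. Those went from 460 higher and 269 lower to 1290 and 1831 with the slide and 1062 and 1554 with the replicate number. Flrt2, a membrane protein that binds Unc5 receptors, was higher by 0.92 ± 0.13 (adjusted p = 0.0068), its relative Flrt3 by 0.71 ± 0.16 (adjusted p = 0.0423), and Srgap3, a GTPase-activating protein of Slit-Robo signalling, by 1.67 ± 0.30 (adjusted p = 0.0186), although its probe was well above background on only 1 of 3 LV arrays. Arhgef11, an exchange factor for RhoA downstream of plexin B, was lower (−0.51 ± 0.10, adjusted p = 0.0301). Against the septum 3 were called, or 4 higher and 8 lower with the slide as a block and 3 and 7 with the replicate number. The shares of all genes called in these fits were 2.70%, 11.0% and 8.69%. The adhesion molecule Chl1 was higher in the RV (0.92 ± 0.16, adjusted p = 0.0226) and the adhesion molecule Cntn2 lower (−2.02 ± 0.28, adjusted p = 0.00956). Dpysl5, a collapsin response mediator, was called higher too (2.45 ± 0.51, adjusted p = 0.045), but its probe was well above background on 1 of 3 septum and 1 of 3 LV arrays and was tested only through the RV. The median of the list was −0.03 in both comparisons.

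Markers of other cell types also differed between the regions. The 8 cardiomyocyte markers, which define this tissue, were all tested. Their summed scaled signal was 3800 to 4060 in the RV, 3900 to 4450 in the LV and 3590 to 4360 in the septum. Without a block, 0 of 8 were called in either RV comparison. Fibroblast markers summed to 357 to 426 in the RV, 233 to 282 in the LV and 286 to 336 in the septum, with 3 of 8 called higher in the RV than in the LV and 1 of 8 against the septum. Endocardium markers summed to 58.7 to 82.0, 15.5 to 25.8 and 30.7 to 38.9, with 4 of 4 and 2 of 4 called higher. Mesothelium markers summed to 8.14 to 23.3, 4.64 to 7.57 and 1.48 to 3.36, with 0 of 8 and 7 of 8 called higher, and their median difference was 1.84 and 3.75. Of 8 adipocyte markers 4 were called higher against the LV and 2 against the septum. Cidec, a lipid droplet protein, was higher by 4.24 ± 0.45 than in the LV and by 2.19 ± 0.45 than in the septum, and the adipokine Retn by 3.26 ± 0.48 than in the LV. Adipoq, which encodes adiponectin, was at −0.41 to 0.45 in the RV and −2.92 to −1.02 in the septum, and Plin1, a coat protein of lipid droplets, at −2.06 to −1.24 and −4.33 to −2.64, while neither was well above background on any LV array. The adipocyte sum (338 to 388 in the RV, 407 to 445 in the LV and 370 to 438 in the septum) rests mainly on Lpl and Fabp4, which differed from the LV by −0.23 and −0.24 without a call. Lep (−0.15 from the LV) and Pparg (−0.19), the other markers of this list, were not called either. All 4 RV arrays were above all other arrays for Sema3a, Sema3d, Sema3c, Slit2 and Slit3 and also for the summed fibroblast, endocardium, mesothelium and macrophage markers and for Adipoq, Cidec and Plin1. The part of these cell types in the guidance genes was not tested.

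The sums of 8 endothelium markers (111 to 119, 112 to 128 and 106 to 124) overlapped in all regions with 0 of 8 called without a block. So did those of 8 smooth muscle and pericyte markers (166 to 283, 175 to 193 and 172 to 199), again with 0 of 8 called without a block. Within the latter list 4 of the 8 differences from the LV were positive. The contractile genes Cnn1 (2.30 ± 0.63), Tagln (1.55 ± 0.39) and Myh11 (1.38 ± 0.41) had every RV array above every LV array. Blocking by slide in limma called all 3 (adjusted p = 0.0253, 0.0184 and 0.0161). Acta2, also of this list, had every RV array below every LV array (−0.31 ± 0.11) without a call. Rgs5 was called lower with the slide as a block (−0.21, limma adjusted p = 0.0315). Macrophage markers summed to 54.3 to 60.7, 38.6 to 50.9 and 35.0 to 52.3 with 0 of 8 called. Of 7 conduction system markers 3 were called higher against the LV, and 1 higher and 1 lower against the septum, with sums of 14.7 to 18.4, 8.65 to 9.78 and 11.1 to 16.2. Atrial markers summed to 33.3 to 112 in the RV, 102 to 150 in the LV and 116 to 594 in the septum, with 1 of 5 tested called higher against the LV. Blocking by slide, 6 of 8 fibroblast, 4 of 4 endocardium, 7 of 8 mesothelium, 4 of 8 adipocyte, 3 of 8 smooth muscle and pericyte and 2 of 8 macrophage markers were called higher against the LV. Blocking by replicate number, these counts were 3, 4, 5, 4, 2 and 4. Against the septum they were 2, 3, 8, 3, 1 and 3 with the slide and 1, 3, 7, 1, 0 and 2 with the replicate number. Called lower against the LV with either block were 2 of 8 cardiomyocyte, 1 of 8 endothelium, 1 of 8 smooth muscle and pericyte and 1 of 5 atrial markers. Endothelium also had 2 called higher with the slide and 1 with the replicate number. Lower than in the septum were 1 atrial marker with either block, 2 conduction system markers with the slide and 1 cardiomyocyte marker with the replicate number.

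**Figure D5:**
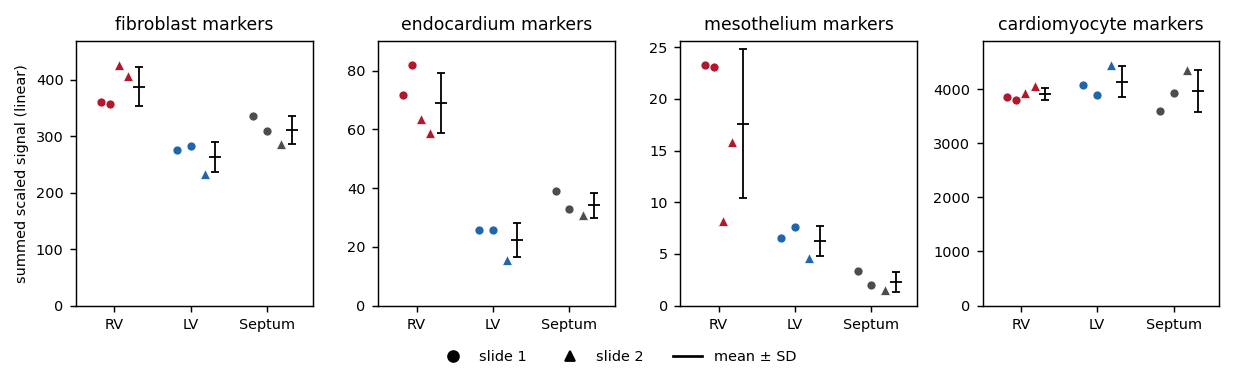
Summed scaled signal (linear, axis from 0) of 8 fibroblast, 4 endocardium, 8 mesothelium and 8 cardiomyocyte markers on each array (circles slide 1, triangles slide 2), with the mean and SD of 4 RV, 3 LV and 3 septum arrays. Fibroblast and endocardium sums of all RV arrays lie above those of the other regions, mesothelium sums of the septum lie lowest at 1.48 to 3.36, and cardiomyocyte sums overlap.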

How the data were processed

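Total RNA of RV, LV and septum was extracted with TRIzol, labelled with Cy3 and hybridised to Agilent mouse arrays. The authors obtained intensity values from Agilent Feature Extraction 11.5.1.1, which subtracts the local background, and deposited them without scaling between arrays. Signals of RV array 1 were stored rounded. A log2 table made with GeneSpring was deposited too, and 100% of its probes lay within 0.05 of the values used here on each array after removal of a constant.

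The titles gave the group and replicate number. Control and outlier spots (56 to 128 an array) were left out, spots of a probe were averaged as log2 intensity, and each array's 75th percentile was subtracted. No spot was saturated, and 53.7% to 64.0% of spots were well above background on an array. Of 56605 probes, the 30234 tested were those flagged well above background throughout 1 or more regions. Probes were named through their RefSeq accession and a GRCm38.p6 gene table (58.3% of probes), and a gene stands by its brightest probe. Every test was two-sided, with limma 3.58.1 in R 4.3.3, 1 mean per region over all 10 arrays, 2.46 prior degrees of freedom and Benjamini-Hochberg adjustment over all probes tested. The fit was tested on simulated data with independent errors and no slide effect. That test does not cover arrays of a slide deviating together, as they did here. The number of arrays limits the precision.

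Named genes are members called without or with the slide as a block, the 3 largest increases and decreases of each comparison, Sema3c, and members above background throughout one region and on no array of another. The members, lists and rules were chosen with earlier results of these data known. Sums of markers add the linear scaled signals of a list. Promoter windows are RefSeq's.

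Same-numbered arrays deviated together from their region means in all 9 pairs across regions (correlation 0.36 to 0.645 over probes). All of these pairs also share a slide, so the check cannot decide whether the titles' numbers pair the samples. On slide 1 every same-numbered pair correlated more than any differently numbered pair, which reached 0.309. On slide 2 RV array 4 and LV array 3 correlated at 0.571, above the 0.426 of RV array 3 and LV array 3. Arrays of the same slide with different numbers correlated at 0.09 to 0.577 and those of different slides at −0.564 to −0.207. Alternatives were quantile, median and restricted 75th-percentile scaling, normexp background correction, the deposited table, other filters, the slide or replicate number as a block, each slide alone, only 2 regions, analysis of variance with Tukey's correction as named in the study's methods, and leaving out each array. Normexp (offset 50) used the median spot signal, since the mean planned for it is not among the columns used here.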

Additional observations from a re-analysis of the deposited data

Results flagged for a closer look

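The 4 RV arrays of each of the 26 named genes were checked for 1 array far from the other 3 by Dixon's test, which chance exceeds in about 1 of 20 groups. In 2 genes RV array 3 stood out. Plxnb1, a receptor of class 4 semaphorins, was at 0.52 on it and at 0.69 to 0.71 on the others, a gap of 0.914 of the range. Plxnb3, another B-class plexin, was at −0.94 on it and at −0.74 to −0.71 on the others, a gap of 0.839 of the range.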

How the results depend on the processing

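Each named gene kept its sign under every alternative run in the comparisons it was named for. Smaller differences of the same genes did not always: Plxnb3 in RV against LV, 0.03, was −0.35 on slide 2 and −0.02 with normexp. The guidance genes called numbered 10 in RV against LV, 5 in RV against septum, 0 in septum against LV and 7 over the 3 regions, and 4, 3 and 0 of the partner genes were called in the 3 pairs. In RV against LV the guidance count was 5 with median scaling, 2 with no filter on dim probes, 22 with the slide as a block, 5 on slide 1 and 2 on slide 2, 20 with a replicate block and 21 with it as a random effect, 1 by analysis of variance (16 with unadjusted Tukey p, an alternative chosen after seeing the data), 6 with only the 2 regions, and 2 to 8 with 1 array left out, lowest without LV array 2. Against the septum it was 0 with no filter, 16 with the slide as a block, 1 on each slide alone, 14 with a replicate block and 16 as a random effect, 0 by analysis of variance (11 unadjusted) and 0 to 6 with 1 array left out, lowest without septum array 2. Septum against LV gave 1 by unadjusted Tukey p and 0 whichever array was left out. Over the 3 regions it was 2 with no filter, 23 with the slide as a block, 1 on each slide, 14 with a replicate block, 20 as a random effect and 3 to 6 with 1 array left out.

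The partner count against the LV was 2 with median scaling, 1 with no filter, 2 with probes above background on all arrays, 18 with the slide as a block, 2 on slide 2, 15 with a replicate block, 19 as a random effect, 1 by analysis of variance (11 unadjusted), 2 with only the 2 regions and 1 to 5 with 1 array left out. Against the septum it was 1 with no filter, 1 above background on all arrays, 12 with the slide as a block, 1 on slide 1, 10 with a replicate block, 12 as a random effect, 0 by analysis of variance (10 unadjusted) and 1 to 3 with 1 array left out. For septum against LV it was 1 with quantile normalization, normexp, the slide as a block or the random effect, 2 by unadjusted Tukey p and 0 to 1 with 1 array left out. The median guidance difference from the LV was −0.05 on slide 2, and with 1 array left out it ran from −0.026 to 0.192, from 0.002 to 0.151 against the septum and from −0.045 to 0.06 for septum against LV.

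Of all probes called in RV against LV 59.7% were higher in the RV, 75.9% with scaling by probes above background on all arrays and 41.1% with the slide as a block. Against the septum the share was 58.0%, 73.0% with median scaling and 46.0% with the slide as a block. The cause of these changes was not tested. Signals near background limit Sema3a, Ntn4, Epha1, Unc5c, Srgap3 and Dpysl5.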
